A study of Homo sapiens with 12 samples.

Results

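Mitochondria that are damaged or surplus are removed by mitophagy, a selective form of autophagy in which a protein on the organelle links it to the growing autophagosome. It runs by a pair of routes: receptors that sit in the mitochondrial membrane and bind proteins of the LC3 and GABARAP family directly, and the kinase PINK1, which marks the organelle with phosphorylated ubiquitin. Among the receptors, BNIP3 and BNIP3L are known as genes induced by low oxygen through the HIF transcription factors.

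The mRNA of 8 genes of these routes was followed here: BNIP3, BNIP3L, FUNDC1, FUNDC2, BCL2L13, FKBP8, PHB2 and PINK1. They were found by exact symbol among the 58307 rows of the deposited table that name a gene, each on 1 row. The set was drawn up around BNIP3, which was chosen on measured values, namely its lower count with rapamycin in both cell lines of these data. The other 7 were chosen as mitophagy genes, with earlier results of these data known. The values of the set in the comparison of treatments are therefore given as a description, without p-values.

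The libraries were prepared from polyA-enriched RNA of A375 and SK-MEL-28, established human melanoma cell lines grown in culture. Cells of each line received either etoposide, a topoisomerase II poison, or etoposide together with rapamycin, which binds the immunophilin FKBP1A and inhibits the kinase complex mTORC1. Each of the 4 groups (A375 Etoposide, A375 Etoposide + Rapamycin, SK-MEL-28 Etoposide, SK-MEL-28 Etoposide + Rapamycin) had 3 libraries, 12 in all, and the question put to them was how rapamycin changes transcription in etoposide-treated cells. Every group contained etoposide and none was untreated, and the labels give no dose or time for these cultures. The study describes its RNA-seq replicates as biological, and its replicates in general as independent. It does not say whether the 3 libraries of a group came from separate cultures or days, so p-values measure the spread between these libraries. Library totals were 28190672 to 32499659 counts.

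Before the results, the labelled cell type was compared with its marker genes. SOX10, a transcription factor of the melanocyte lineage, was abundant in every library, at 166 to 579 CPM (a count taken relative to its library's TMM-adjusted total), as was S100B at 56.8 to 106 CPM. MITF ranged from 12.1 to 29.7 CPM. The pigment genes were close to 0 throughout: the highest value in any of the 12 libraries was 1.37 CPM for MLANA, 2.99 CPM for PMEL, 0.197 CPM for TYR, 2.16 CPM for DCT and 1.82 CPM for TYRP1. SK-MEL-28 is usually described as a line that expresses pigment genes, so the libraries labelled SK-MEL-28 did not carry this feature of their label, and "SK-MEL-28" stands for that label in what follows. Across 20101 genes, the mean log2 CPM of the cell lines under etoposide had a Pearson correlation of 0.979, and 384 genes differed between them by more than 4-fold with an adjusted p under the threshold. Among markers of other cells, PTPRC was at most 0.632 CPM, CD3E at most 0.213 CPM, KRT5 at most 0.265 CPM and COL1A2 at most 0.331 CPM. Other genes of the same lists were higher, with LUM, a fibroblast marker, up to 28.9 CPM and LYZ, a leukocyte marker, up to 33.4 CPM, and KRT10 and CD68, genes expressed by many cell types, reached 62.9 and 52.0 CPM.

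BNIP3 lies on the reverse strand of chromosome 10 of GRCh38, from 131967684 to 131981967. The core sequence bound by HIF factors is spelled ACGTG or GCGTG, and the letters ACGTG were searched on both strands in the 250 bases before each RefSeq transcription start (GRCh38.p14). RefSeq promoters were matched for 5 of the 8 genes, BNIP3, FUNDC1, FUNDC2, BCL2L13 and PHB2, with 8 start sites between them. Only the BNIP3 window held the letters, and 6501 of all 35116 windows did (18.51%). Among hypoxia-induced genes, a list described further below that does not contain BNIP3, 18 of 31 windows did (58.06%). The form GCGTG, searched in the same way, was in 11313 of all windows (32.22%), in 16 of the 31 windows of hypoxia-induced genes (51.61%) and in 3 of the 8 windows of the members, with 4 matches for BNIP3, 1 for FUNDC2 and 1 for a start site of BCL2L13. The first 150 bases of the BNIP3 window (chr10:131982024-131982173, reverse strand, from 250 to 101 bases before the start) are printed because they contain the ACGTG match, with 3 of the GCGTG matches beside it, and the same stretch of FUNDC1 (chrX:44542960-44543109, reverse strand) is printed as a window without a match of either form. Capitals mark the letters matched by ACGTG alone, at 134 to 129 bases before the start of BNIP3, where a match on either strand overlaps the other in a palindrome that also spells an E-box, the motif of another class of factors. A match of letters is not evidence of a bound site.
BNIP3: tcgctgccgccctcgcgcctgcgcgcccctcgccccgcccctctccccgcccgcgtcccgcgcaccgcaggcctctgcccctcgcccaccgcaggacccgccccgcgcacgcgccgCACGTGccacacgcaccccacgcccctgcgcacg
FUNDC1: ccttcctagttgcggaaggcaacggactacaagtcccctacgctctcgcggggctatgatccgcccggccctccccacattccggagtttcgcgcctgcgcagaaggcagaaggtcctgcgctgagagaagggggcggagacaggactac

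With rapamycin, BNIP3 mRNA was lower in both lines, and its relative BNIP3L was lower by a smaller amount. FUNDC2 and PHB2 were higher in both lines. FUNDC1, BCL2L13 and FKBP8 differed little between treatments, and PINK1 was lower in SK-MEL-28. A gene was called when edgeR's adjusted p was under 0.05 and its fold change over 1.5, in either direction. By that rule BNIP3 was the only one of the 8 genes called in A375, where 5.89% of the 18844 genes tested were called (3.09% as higher and 2.8% as lower). It was likewise the only one in SK-MEL-28, where 4.99% of 18897 were called (1.85% as higher and 3.14% as lower). With no fold change threshold, 4 of the 8 passed in A375 against 28.1% of all genes, and 5 in SK-MEL-28 against 19% of all genes. Since BNIP3 was picked from this comparison, nothing is read from these counts.

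**Figure D1:**
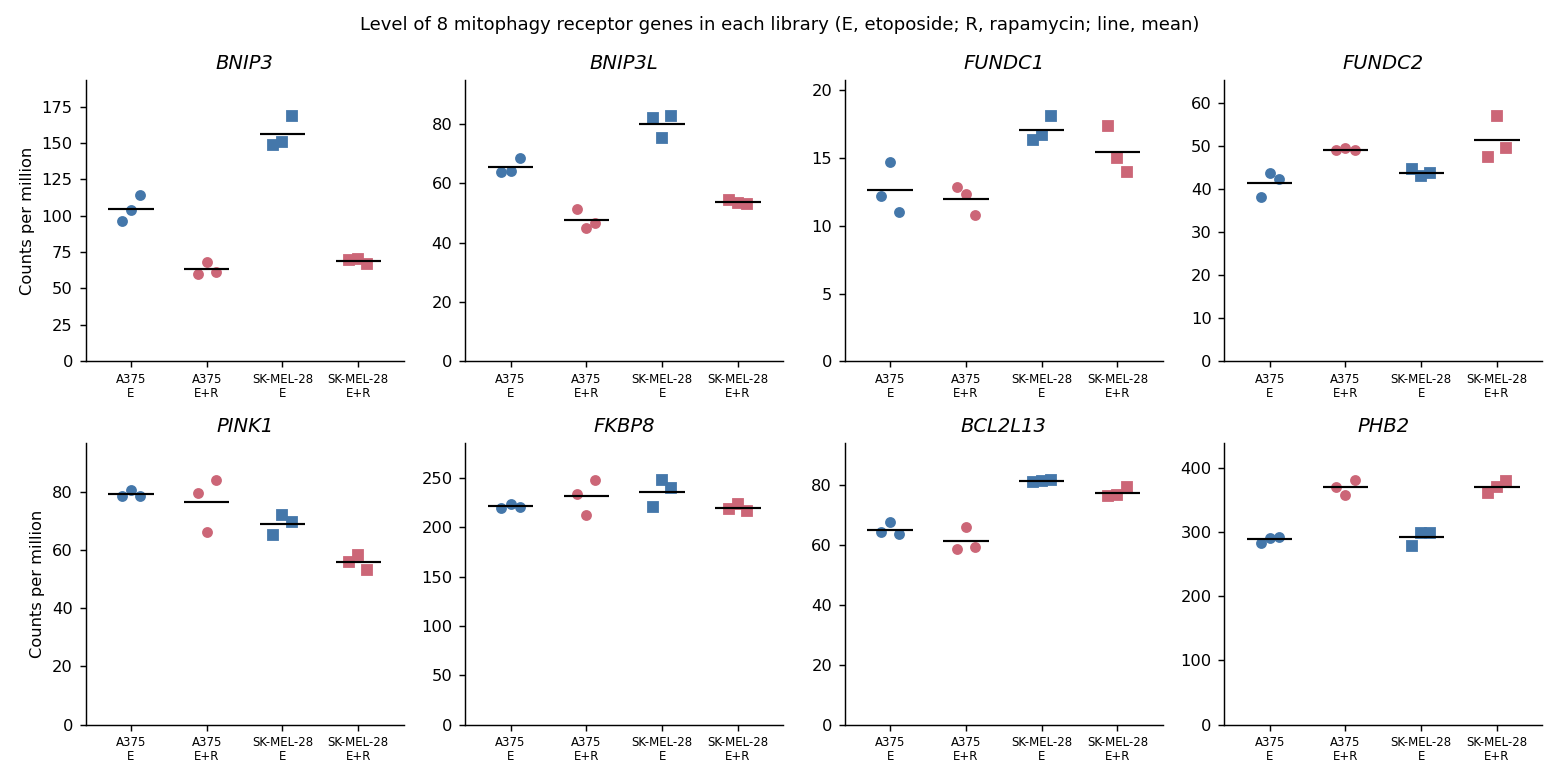
Level of each of the 8 genes in CPM (vertical axes, each starting at 0) in the 3 libraries of each group; points are libraries, horizontal lines are group means, and E and R stand for etoposide and rapamycin. For BNIP3 the rapamycin libraries sit at 59.9 to 70.1 CPM in both lines, below every etoposide library (96.3 to 168 CPM).

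BNIP3 is a BH3-containing protein of the outer mitochondrial membrane that binds LC3 through its cytosolic tail. In A375 its level was 96.3, 104 and 114 CPM with etoposide and 59.9, 68.3 and 61.1 CPM with etoposide + rapamycin. The 3 libraries with rapamycin were all below the 3 without it, and the log2 fold change was -0.73 (standard error 0.069), a 1.65-fold lower level. In SK-MEL-28 the level was 149, 151 and 168 CPM with etoposide and 69.6, 70.1 and 66.9 CPM with etoposide + rapamycin. Here too the groups did not overlap, and the log2 fold change was -1.18 (standard error 0.059), a 2.27-fold lower level. With rapamycin the 6 libraries of both lines lay at 59.9 to 70.1 CPM, whereas under etoposide all SK-MEL-28 libraries were above all A375 libraries. The table also holds 38 rows of BNIP3 pseudogenes, near-identical copies that can share reads with the gene, of which 26 had counts, and their summed count was 72 to 150 per library, at most 7.29% of that of BNIP3.

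BNIP3L, also called NIX, shares its domain layout with BNIP3 and is best known for clearing mitochondria from maturing red blood cells. It lies on the forward strand of chromosome 8, from 26383054 to 26505636. In A375 it stood at 63.8, 64.3 and 68.7 CPM with etoposide and at 51.5, 45.0 and 46.6 CPM with etoposide + rapamycin. The groups did not overlap, and the log2 fold change was -0.45 (standard error 0.061). In SK-MEL-28 it stood at 82.1, 75.4 and 82.6 CPM with etoposide and at 54.3, 53.4 and 53.1 CPM with etoposide + rapamycin. The groups were again apart, and its log2 value was -0.58 (standard error 0.053). At 1.496-fold this value was just outside the fold change threshold, and BNIP3 in A375, at 1.65-fold, was the member nearest to it on the inside.

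FUNDC1 is an outer-membrane receptor whose binding to LC3 is controlled by phosphorylation, and FUNDC2 is its paralog. FUNDC1 (chromosome X, reverse strand, 44523639 to 44542859) had the fewest counts of the set, 313 to 595 per library. Its level was 12.2, 14.7 and 11.0 CPM in A375 with etoposide and 12.9, 12.4 and 10.8 CPM with etoposide + rapamycin, and the groups overlapped. The SK-MEL-28 libraries had 16.3, 16.7 and 18.1 CPM against 17.4, 15.0 and 14.0 CPM, also overlapping. The log2 fold changes were -0.07 (standard error 0.12) and -0.14 (standard error 0.10). FUNDC2 (chromosome X, forward strand, 155025980 to 155060304) went the other way, from 38.1, 43.7 and 42.3 CPM to 48.9, 49.4 and 49.0 CPM in A375. In SK-MEL-28 it went from 44.5, 43.1 and 43.6 CPM to 47.3, 56.8 and 49.6 CPM. The rapamycin libraries were above all etoposide libraries in both lines, by log2 fold changes of 0.25 (standard error 0.062) and 0.22 (standard error 0.069).

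BCL2L13, an outer-membrane protein of the BCL2 family that can replace the yeast mitophagy receptor Atg32, lies on the forward strand of chromosome 22 (17628855 to 17730855). Its level in A375 was 64.2, 67.8 and 63.6 CPM with etoposide and 58.7, 66.1 and 59.4 CPM with etoposide + rapamycin, with overlap. In SK-MEL-28 it was 81.3, 81.3 and 81.8 CPM against 76.4, 76.8 and 79.3 CPM, without overlap, although the log2 change was only -0.08 (standard error 0.046), the same size as the -0.08 (standard error 0.059) of A375. FKBP8, an immunophilin anchored in the outer membrane that binds LC3A, lies on the reverse strand of chromosome 19 (18531751 to 18544077). It had 219, 224 and 221 CPM in A375 with etoposide and 234, 212 and 248 CPM with etoposide + rapamycin. The SK-MEL-28 libraries had 220, 248 and 240 CPM against 218, 224 and 216 CPM. The groups overlapped in both lines, and the log2 fold changes were 0.07 (standard error 0.055) in A375 and -0.11 (standard error 0.054) in SK-MEL-28.

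PHB2 (prohibitin 2) belongs to the inner membrane and becomes accessible to LC3 once the outer membrane is ruptured. It lies on the reverse strand of chromosome 12 (6965327 to 6970780). Its level in A375 was 283, 292 and 293 CPM with etoposide and 371, 358 and 382 CPM with etoposide + rapamycin. In SK-MEL-28 it was 279, 299 and 299 CPM against 362, 370 and 380 CPM. Both lines had higher PHB2 with rapamycin and no overlap, with log2 fold changes of 0.36 (standard error 0.043) and 0.34 (standard error 0.049), the largest upward values of the set. PHB1, the partner with which PHB2 forms its ring complex, was measured alongside and was not called, with log2 fold changes of -0.05 (standard error 0.050) and -0.08 (standard error 0.053).

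PINK1 is a kinase and not an LC3-binding receptor. Its gene lies on the forward strand of chromosome 1 (20633458 to 20651511). In A375 it stood at 78.6, 80.5 and 78.4 CPM with etoposide and at 79.5, 66.2 and 84.0 CPM with etoposide + rapamycin, values that overlapped (log2 fold change -0.04, standard error 0.074). In SK-MEL-28 it stood at 65.0, 72.1 and 69.6 CPM with etoposide and at 55.9, 58.2 and 53.2 CPM with etoposide + rapamycin. These groups did not overlap, and the log2 fold change was -0.31 (standard error 0.057). PINK1-AS, a gene on the opposite strand with overlapping exons, had 1600 to 2316 counts per library, and whether the counting used strand is not stated, so reads of the pair cannot be told apart. PINK1-AS itself was not called, with log2 fold changes of -0.23 in A375 (adjusted p = 0.0264) and -0.07 in SK-MEL-28 (adjusted p = 0.496). Neighbours with overlapping exons were also present for BNIP3L (PNMA2, 60 to 114 counts) and FUNDC2 (F8, 89 to 177 counts), far fewer than the members' own. PHB2 and FKBP8 each have an annotated antisense lncRNA with overlapping exons (ENSG00000271969 and ENSG00000268938) for which no count was matched, so reads of these pairs cannot be told apart either.

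**Figure D2:**
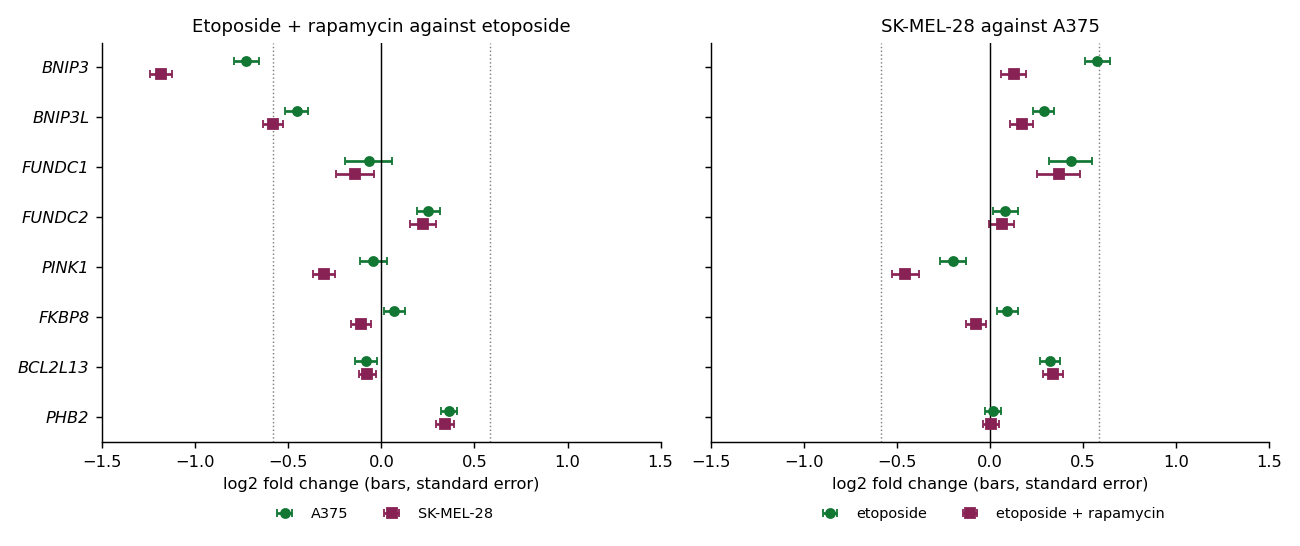
Log2 fold changes of the 8 genes with their standard errors (bars); the left panel compares etoposide + rapamycin with etoposide in each line, the right panel compares SK-MEL-28 with A375 under each treatment, and dotted lines mark a fold change of 1.5. On the left BNIP3 is the only gene beyond the dotted line in both lines (-0.73 and -1.18), and on the right no gene is beyond it.

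Counting libraries without regard to size, 4 of the 8 genes had groups that did not overlap in A375, where 42.6% of all genes did. In SK-MEL-28 there were 6, against 35.9% of all genes. The 8 genes had a median log2 fold change of -0.06 in A375 and -0.13 for SK-MEL-28, beside -0.0051 and 0.0053 over all genes tested. In bulk RNA, fewer cells of a kind and less RNA per cell cannot be told apart.

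Levels of different genes were compared per kilobase of annotated exon. FKBP8 and PHB2 stood far above the rest in each group, at 78.5 and 68.4 CPM per kilobase in A375 with etoposide and at 83.7 and 69.2 in SK-MEL-28 with etoposide. With rapamycin PHB2 stood above FKBP8 in SK-MEL-28, at 87.7 against 77.8 CPM per kilobase, without overlap. In A375 with rapamycin the libraries of the pair overlapped, at 87.6 for PHB2 and 82.1 for FKBP8, and with the longest transcript as the length FKBP8 was ahead, at 130 against 126. BNIP3 ranked 3 under etoposide, at 25.9 ± 2.2 CPM per kilobase (SD, n = 3) in A375 and 38.5 ± 2.7 (SD, n = 3) in SK-MEL-28. Of the genes with a known length, 90.1% stood lower in A375 under etoposide, and 94.1% in SK-MEL-28. With rapamycin it stood at 15.6 ± 1.1 CPM per kilobase (SD, n = 3) in A375, where it could not be separated from PINK1 (15.8), and at 17.0 ± 0.42 (SD, n = 3) in SK-MEL-28, still at rank 3.

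The lower part of the order was closer. PINK1, at 16.4 CPM per kilobase, and BNIP3L, at 15.8, overlapped in A375 with etoposide, while in SK-MEL-28 BNIP3L (19.3) was above PINK1 (14.3). FUNDC1 was at 9.55 to 13.6 CPM per kilobase over the 4 group means and BCL2L13 at 8.01 to 10.6, with overlap in A375 under either treatment and none in SK-MEL-28. FUNDC2 was last in every group, at 4.10 to 5.07. The order of FUNDC1 and BCL2L13 depended on the gene length used and was exchanged when the longest transcript replaced the union of exons, as was that of BNIP3 and PINK1 in A375 with rapamycin.

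**Figure D3:**
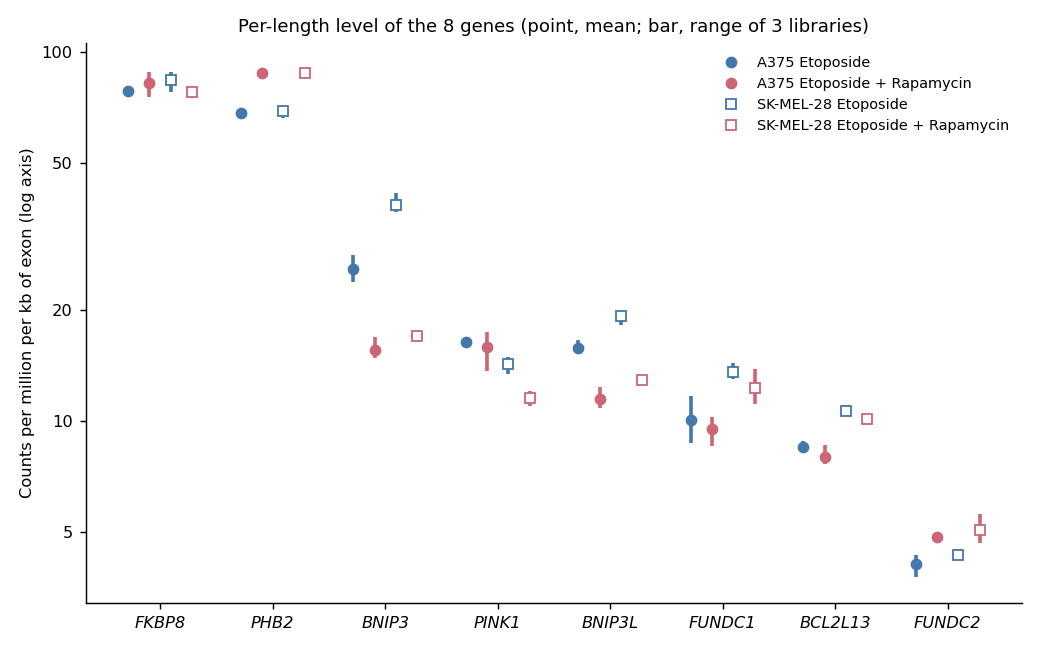
Level of the 8 genes per kilobase of exon (vertical log axis) in the 4 groups; points are means and bars the range of 3 libraries. FKBP8 and PHB2 lie at 68.4 to 87.7 CPM per kilobase, BNIP3 at 38.5 in SK-MEL-28 with etoposide and at 15.6 and 17.0 with rapamycin, and FUNDC2 at or below 5.07.

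The summed level of the 8 genes overlapped between treatments in A375, at 222 to 231 CPM per kilobase with etoposide and 225 to 243 with etoposide + rapamycin. In SK-MEL-28 it was lower with rapamycin, at 242 to 261 and 233 to 237. The make-up of the sum differed more. BNIP3 supplied 10.7% to 12.3% of that sum in the A375 libraries with etoposide and 6.20% to 7.50% in those with rapamycin. In SK-MEL-28 the shares were 14.5% to 15.9% and 7.08% to 7.36%. PHB2 supplied 29.9% to 30.1% of the sum in A375 with etoposide and 37.0% to 37.7% with rapamycin, and 27.1% to 27.5% against 36.7% to 38.6% in SK-MEL-28. The ratio of BNIP3 to BNIP3L per kilobase was 1.55 to 1.70 in A375 with etoposide and 1.19 to 1.55 with rapamycin, ranges that just touched. In SK-MEL-28 it was 1.86 to 2.09 and 1.29 to 1.34, ranges that were apart.

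The cell lines were next compared with each other under the same treatment, a comparison that the choice of BNIP3 did not use, although it shares the etoposide or the rapamycin libraries with the comparisons above. Under etoposide, BNIP3 was higher in SK-MEL-28 by 0.57 on the log2 scale (standard error 0.067, adjusted p = 4.07e-06, edgeR fit of 12 libraries). All 3 SK-MEL-28 libraries were above all 3 A375 libraries, but at 1.49-fold the difference missed the fold change threshold. Under etoposide + rapamycin the difference was 0.13 (standard error 0.069, adjusted p = 0.171) and the libraries overlapped. BNIP3L was higher in SK-MEL-28 under etoposide by 0.29 (standard error 0.058, adjusted p = 0.00103) and under etoposide + rapamycin by 0.17 (standard error 0.059, adjusted p = 0.0339). The latter did not pass an adjusted p of 0.05 without A375 Etoposide + Rapamycin replicate 2 (0.13, adjusted p = 0.146) or 3 (0.15, adjusted p = 0.104), or without SK-MEL-28 Etoposide + Rapamycin replicate 1, 2 or 3 (0.16 to 0.18, adjusted p of 0.0644 to 0.0826).

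FUNDC1 and BCL2L13 were higher in SK-MEL-28 whichever treatment was given, BCL2L13 with every library left out in turn. For FUNDC1 the log2 difference was 0.43 (standard error 0.12, adjusted p = 0.00823) under etoposide and 0.37 (standard error 0.12, adjusted p = 0.0198) under etoposide + rapamycin. The latter was lost without A375 Etoposide + Rapamycin replicate 3 (0.30, adjusted p = 0.0956) and without SK-MEL-28 Etoposide + Rapamycin replicate 1 (0.28, adjusted p = 0.103). For BCL2L13 it was 0.32 (standard error 0.053, adjusted p = 0.000153) and 0.34 (standard error 0.053, adjusted p = 8.76e-05). PINK1 was lower in SK-MEL-28, by -0.20 (standard error 0.072, adjusted p = 0.0442) under etoposide and -0.46 (standard error 0.073, adjusted p = 9.71e-05) under etoposide + rapamycin. Under etoposide PINK1 no longer passed in 8 of the 12 fits that each left out a library, at -0.23 to -0.16 and an adjusted p of up to 0.158 without SK-MEL-28 Etoposide replicate 1, nor in 3 of 7 other alternatives. FUNDC2, FKBP8 and PHB2 did not pass the threshold in either comparison, with log2 differences between -0.08 and 0.09 and adjusted p of 0.226 to 0.975.

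None of the 8 genes reached both thresholds in these comparisons, where 12.5% of 20101 genes were called under etoposide and 14.4% under etoposide + rapamycin. An unadjusted p under 0.05 was found for 5 and 4 of the genes, and DESeq2 called 1 (BNIP3) and 0. Without the fold change threshold, 5 of the 8 passed under etoposide against 31.8% of all genes, and 4 under etoposide + rapamycin against 37.8%. The libraries of the lines did not overlap for 5 of the genes under etoposide, against 43.3% of all genes, and for 4 under etoposide + rapamycin, against 49.2%.

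Whether rapamycin acted differently in the lines was addressed by the difference between the log2 fold changes, SK-MEL-28 minus A375. For BNIP3 this difference was -0.45 (standard error 0.096), and because BNIP3 was chosen on both responses it is given without a p. Of the other 7 genes, 0 passed an adjusted p of 0.05 in edgeR's quasi-likelihood test, at which 5.62% of 20101 genes passed. An unadjusted p under 0.05 was found for 2 of them, PINK1 and FKBP8, and DESeq2 gave 0 with an adjusted p under 0.05. The difference was -0.26 for PINK1 (standard error 0.10, adjusted p = 0.163), -0.17 for FKBP8 (standard error 0.078, adjusted p = 0.230) and -0.12 for BNIP3L (standard error 0.083, adjusted p = 0.469). It was between -0.07 and 0.01 for FUNDC1, FUNDC2, BCL2L13 and PHB2 (adjusted p of 0.877 to 0.945). The lower PINK1 of SK-MEL-28 with rapamycin was not shown to differ from the response in A375.

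The genes whose log2 CPM tracked BNIP3 most closely over the 12 libraries were ALDOC (Pearson r = 0.992), PDIA6 (0.986), CALR (0.979), GLDC (0.979) and P4HB (0.978), among 12710 genes with enough counts. These points form 4 groups that share the treatments, so any gene with the same group means scores high, and the values are descriptive. ALDOC, which encodes a glycolytic aldolase, stood at 70.3, 84.8 and 83.9 CPM in A375 with etoposide and 23.8, 28.4 and 24.5 CPM with etoposide + rapamycin. In SK-MEL-28 it stood at 172, 206 and 197 CPM and at 39.3, 35.3 and 33.3 CPM. BNIP3L ranked 16 on this scale (r = 0.965), ahead of all other members. FUNDC1 (0.492), BCL2L13 (0.531), FKBP8 (0.239) and PINK1 (0.170) lay far behind, and FUNDC2 (-0.639) and PHB2 (-0.872) ran against BNIP3. With the mean of each line taken off first, the nearest genes were ALDOC (0.993), PGK1 (0.992), PDK1 (0.991), TUBA1A (0.991) and EGLN1 (0.986), and BNIP3L ranked 71 (0.961). On that scale PINK1 was nearer to BNIP3 (0.695), as was BCL2L13 (0.667), while FUNDC1 was at 0.407, FKBP8 at 0.234, FUNDC2 at -0.788 and PHB2 at -0.935.

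Related genes were taken from lists of known function. They were chosen with earlier results of these data known. Of 23 hypoxia-induced genes, which did not include BNIP3 or BNIP3L, 5 were called as lower and 0 as higher in A375 with rapamycin, with a median log2 fold change of -0.41, where 2.8% of all genes were called as lower. In SK-MEL-28 10 were called as lower and 0 as higher, with a median of -0.57, where 3.14% of all genes were called as lower. By adjusted p alone 18 were lower and 0 higher in A375, against 28.1% of all genes in either direction, and 20 were lower and 1 higher in SK-MEL-28, against 19%. CA9, a carbonic anhydrase, was the most extreme, at 11.9, 11.4 and 8.99 CPM in A375 with etoposide and 0.945, 0.942 and 1.11 CPM with rapamycin. BNIP3L (-0.45 and -0.58) was close to the median of this list in both lines. BNIP3 was further from 0 than that median, but it was picked for its fall in both lines, so nothing is read from this. The genes called as lower in both lines were CA9, PDK1, BHLHE40, FAM162A and DDIT4. In A375 BHLHE40 fell under the fold change threshold without A375 Etoposide + Rapamycin replicate 3 (-0.56) and FAM162A without A375 Etoposide replicate 3 (-0.57). In the test of the difference between the lines, 12 of the 23 genes had a more negative log2 fold change in SK-MEL-28 and 1, MXI1, a more positive one, against 5.62% of all genes, with 8 to 12 more negative when a library was left out.

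Among 12 regulators of the receptors, EPAS1, which encodes HIF-2 alpha, was lower in both lines (-0.85, adjusted p = 0.000281, and -1.39, adjusted p = 8.20e-06), at 5.32 to 16.7 CPM over the 12 libraries. EPAS1 was named because it was called in both lines, so its adjusted p are a description. HIF1A was lower in A375, at 500, 479 and 503 CPM with etoposide and 312, 314 and 309 CPM with rapamycin (-0.66, adjusted p = 5.55e-07). In SK-MEL-28 it went from 365, 335 and 352 CPM to 314, 293 and 291 CPM (-0.23, adjusted p = 0.00778), under the fold change threshold. FOXO3, EGLN1, VHL, SRC and the casein kinase 2 genes were among the 10 that were called in neither line. The calls, all as lower, were 2 of 12 for A375, against 2.8% of all genes. For SK-MEL-28 the call was 1 of 12, against 3.14%. By adjusted p alone 6 were lower and 0 higher in A375, against 28.1% of all genes in either direction. The SK-MEL-28 counts were 5 lower and 0 higher, against 19%. EGLN1 passed this way in both lines (-0.31, adjusted p = 0.000425, and -0.43, adjusted p = 5.0e-05).

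The shares of all genes called, 5.89% in A375 and 4.99% in SK-MEL-28, stand beside the counts of the remaining lists, which are short. These shares do not apply to the counts at an unadjusted p under 0.05, for which the share of all genes was not counted. By adjusted p alone, a stricter rule, 28.1% and 19% of all genes passed. Nothing is therefore read from the unadjusted counts here and in the lists below. Of 18 genes of the PINK1 pathway, 0 were called in A375 and 0 in SK-MEL-28, with 12 and 7 at an unadjusted p under 0.05 and 0 by DESeq2 in either line. Of 7 soluble cargo receptors 0 were called in either line (4 and 4 at an unadjusted p under 0.05, 0 by DESeq2). MAP1LC3A, the LC3 isoform named above as partner of FKBP8, was the 1 gene called among the 7 of the ATG8 family tested in SK-MEL-28, where it was higher with rapamycin (0.67, adjusted p = 0.00189), although under the fold change threshold without SK-MEL-28 Etoposide + Rapamycin replicate 1 (0.57). In A375 it had 19.2 to 32.0 CPM and was also higher with rapamycin (0.39, adjusted p = 0.0187), by less than 1.5-fold, which was lost without A375 Etoposide + Rapamycin replicate 1 (0.39, adjusted p = 0.0542) or 3 (0.30, adjusted p = 0.0913) and without A375 Etoposide replicate 1 (0.31, adjusted p = 0.0636). The difference between the lines did not pass (0.29, adjusted p = 0.390). In A375 0 of the 6 ATG8 genes tested were called (4 at an unadjusted p under 0.05, 0 by DESeq2). Of 10 genes of the autophagy initiation complex and 9 other mitochondrial receptors and adaptors, PHB1 among them, 0 were called in either line (5 and 3, and 5 and 3, at an unadjusted p under 0.05, 0 by DESeq2).

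Relatives of single members were counted in the same way. Of 15 FKBP immunophilins, the family of FKBP8, 0 were called in A375 (5 at an unadjusted p under 0.05, 0 by DESeq2) and 1, FKBP1B, was lower in SK-MEL-28 (-0.66, adjusted p = 0.0215). It was not called without SK-MEL-28 Etoposide + Rapamycin replicate 1 (-0.58) or 3 (-0.63), or without SK-MEL-28 Etoposide replicate 1 (-0.67) or 2 (-0.61). Of 17 BCL2 family genes tested 0 were called in either line (10 and 6 at an unadjusted p under 0.05, with 0 and 1 by DESeq2). Of 19 genes tested that follow the amount of mitochondria 0 were called in either line (13 and 8 at an unadjusted p under 0.05, 0 by DESeq2), with medians of -0.16 and -0.07. By adjusted p alone 11 were lower and 0 higher in A375, against 28.1% of all genes in either direction. In SK-MEL-28 4 were lower and 0 higher, against 19%. The summed level of this list was 28489 to 30792 CPM in A375 with etoposide and 24016 to 25539 CPM with rapamycin, while in SK-MEL-28 the ranges were 31770 to 33846 and 31677 to 32378 CPM. Whether this had a part in the values of the receptors was not tested.

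A few markers of other cell types were also called with rapamycin. Of all genes, 2.8% were called as lower in A375 and 3.14% in SK-MEL-28, and 1.85% as higher in SK-MEL-28. Of 4 fibroblast markers tested, DCN and LUM were lower in A375 and LUM was lower in SK-MEL-28. DCN was not called without A375 Etoposide + Rapamycin replicate 2 (-0.53) or A375 Etoposide replicate 3 (-0.49), nor was LUM in SK-MEL-28 without SK-MEL-28 Etoposide replicate 1 (-0.57). The summed fibroblast markers, most abundant in LUM, were at 17.6 to 22.4 CPM in A375 with etoposide and 13.2 to 13.6 CPM with rapamycin, and at 31.6 to 39.2 and 21.2 to 24.8 CPM in SK-MEL-28. Among leukocyte markers LYZ was lower in both lines and CD68, the most abundant, was called as higher in SK-MEL-28 (0.64, adjusted p = 0.0384), where 3 of the 5 markers were tested. DESeq2 did not call it, and the call was lost in 5 of the 6 fits that left out a library, with 0.37 without SK-MEL-28 Etoposide + Rapamycin replicate 1, the lowest, and 0.89 without replicate 2, the only one that kept it. The summed leukocyte markers overlapped between treatments, at 40.0 to 53.2 and 39.5 to 59.5 CPM in A375 and at 53.5 to 55.4 and 40.7 to 60.0 CPM in SK-MEL-28. DCT, near 0 as given above, was lower in A375. There DESeq2 called 0 of the melanocyte lineage markers and gave an adjusted p for 4, against 7 tested by edgeR. Neither of the 2 keratinocyte markers tested was called (0 and 1 at an unadjusted p under 0.05, 0 by DESeq2). The part of these markers in the values of BNIP3 was not tested.

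**Figure D4:**
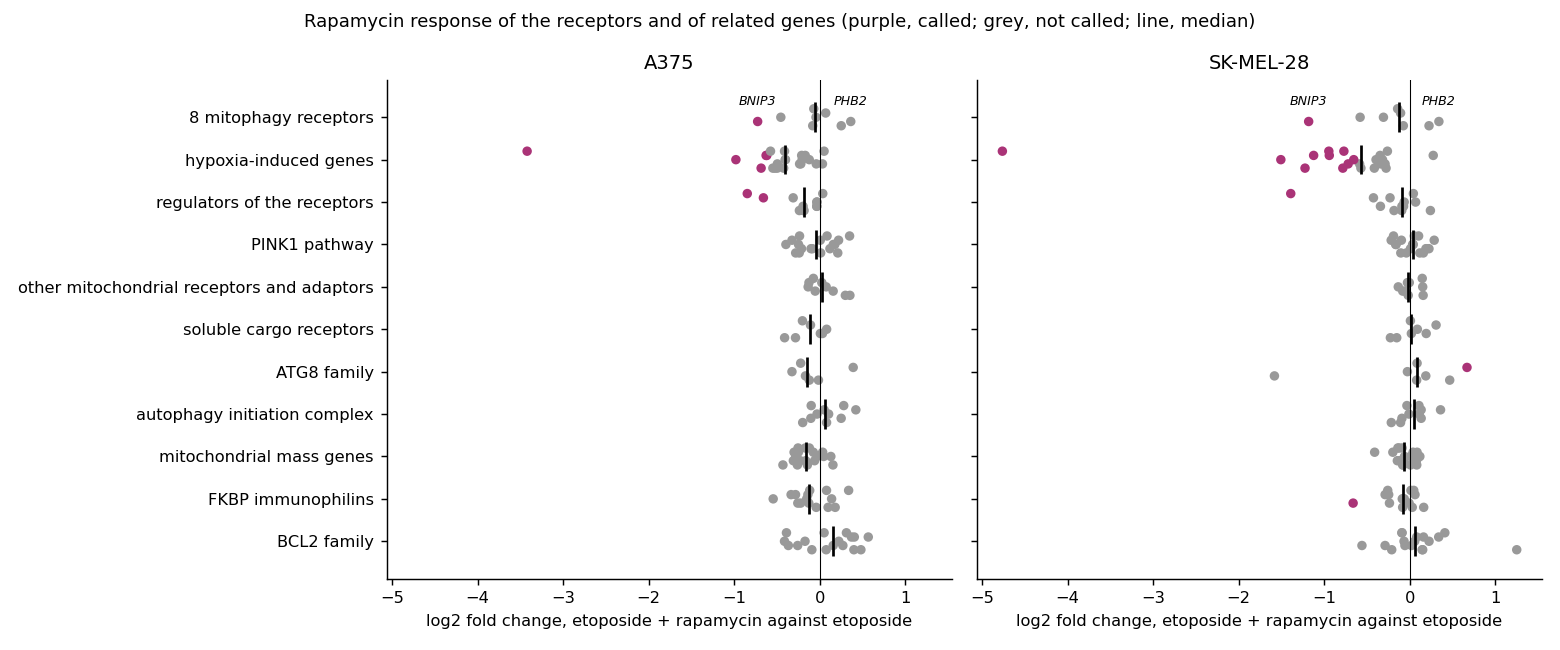
Log2 fold change of etoposide + rapamycin against etoposide (horizontal axis, same range in both panels) for the 8 genes and 10 lists of related genes in A375 (left) and SK-MEL-28 (right); each point is a gene, purple points were called, grey points were not, and black lines are medians. The list of hypoxia-induced genes has medians of -0.41 and -0.57 with 5 and 10 called, the PINK1 list has none called, and BNIP3 is the one purple point of the top row.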

How the data were processed

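Clean reads were mapped by the authors to GRCh38 with HISAT2 2.2.0, converted with Samtools 1.3.1 and quantified with StringTie 2.1.4 (Ensembl release 90). What the authors deposited are raw counts per gene and library, without normalization. How StringTie coverage became counts, and whether strand was used, is not stated, so a count may not be 1 read and precision is taken from the spread between libraries. Rows naming no gene (0.00099% to 0.0053% of a library's counts) were left out.

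The counts were tested with edgeR 4.0.16 in R 4.3.3 (filterByExpr with a minimum count of 10, TMM scaling, quasi-likelihood test, Benjamini-Hochberg adjustment over all genes tested), and all 8 genes passed the filter. Treatments were compared within each cell line, and cell lines, as well as the difference between responses, in one fit of 12 libraries. The standard error is the log2 fold change divided by the root of the F statistic. CPM was TMM-scaled, and exon lengths came from GENCODE 44.

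The 8 genes and all gene lists were chosen with earlier results of these data known, and 1 listed gene is not reported here and is in no list count. Named were the 8 genes, in each list any called alike in both cell lines, and the 5 genes most like BNIP3 (at least 100 counts on average). The 3 most abundant genes of each list were also followed, but only some of them are named. TOMM20, MCL1 and BAX are among those left unnamed in the results, so the genes named are a selection. Other genes named, such as PHB1, MXI1 and PINK1-AS, were chosen after their values were seen. Alternatives were DESeq2 1.42.0, its size factors in edgeR (RLE), library totals, other count filters, a replicate block, other fits, no fold change threshold, another gene length and each library left out.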

Additional observations from a re-analysis of the deposited data

Results flagged for a closer look

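A few of the related genes named here had a rapamycin response that differed between the cell lines in the test of the difference itself (edgeR's quasi-likelihood test, adjusted over 20101 genes). Values are log2 differences of SK-MEL-28 minus A375, followed by the log2 fold change of each line fitted alone. None of the 7 members besides BNIP3 was among them. The genes given are a selection, and ALDOC, P4HB, PGK1, MXI1 and DCT, named or listed above, also passed. Beside each value that did not pass an adjusted p of 0.05 in all of the 12 fits that left out a library is the number of fits that lost it.

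Among genes of the autophagy and mitochondrial surface lists, SQSTM1 and 3 of the 7 ATG8 genes tested had a more positive response in SK-MEL-28, and RHOT2 and ATAD3B a more negative one. SQSTM1 was 1 of 7 soluble cargo receptors, RHOT2 1 of 18 PINK1 pathway genes and ATAD3B 1 of 9 other mitochondrial receptors and adaptors. Of all genes, 5.62% passed. SQSTM1 differed by 0.42 (adjusted p = 0.00234), with -0.11 in A375 and 0.31 in SK-MEL-28. For MAP1LC3B the difference was 0.32 (adjusted p = 0.0250), from -0.22 in A375 and 0.08 for SK-MEL-28, lost in 6 of 12 fits (0.25 to 0.38, adjusted p of up to 0.0782). The difference of GABARAPL1 was 0.36 (adjusted p = 0.00539), where A375 had -0.17 and SK-MEL-28 0.19. GABARAPL2, named after its values were seen, differed by 0.30 (adjusted p = 0.0368), with -0.32 in A375 and -0.03 in SK-MEL-28, lost in 8 of 12 fits (0.27 to 0.36, adjusted p of up to 0.104). RHOT2 differed by -0.24 (adjusted p = 0.0358), with 0.35 in A375 and 0.10 in SK-MEL-28, lost in 7 of 12 fits (-0.27 to -0.22, highest adjusted p 0.1001). For ATAD3B the difference was -0.36 (adjusted p = 0.0229), from 0.35 in A375 and -0.02 in SK-MEL-28, lost without A375 Etoposide + Rapamycin replicate 3 (-0.30), SK-MEL-28 Etoposide + Rapamycin replicate 1 (-0.33) and SK-MEL-28 Etoposide replicates 2 (-0.32) and 3 (-0.35).

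The 7 hypoxia-induced genes given here had a more negative response for SK-MEL-28. They are a selection from the list of 23, of which 12 had a more negative response and 1, MXI1, a more positive one, against 5.62% of all genes. CA9, PDK1, BHLHE40 and DDIT4 were named because they were called as lower in both lines, so their adjusted p are a description. The difference of CA9 was -1.33 (adjusted p = 0.0383), where A375 had -3.42 and SK-MEL-28 -4.76, lost in 9 of 12 fits (-1.91 to -1.01, adjusted p of up to 0.122). PDK1 differed by -0.52 (adjusted p = 0.0316), with -0.98 in A375 and -1.51 in SK-MEL-28, lost in 7 of 12 fits (-0.62 to -0.42, adjusted p of up to 0.0861). For BHLHE40 the difference was -0.50 (adjusted p = 0.00975), from -0.62 in A375 and -1.12 for SK-MEL-28. The difference of DDIT4 was -0.53 (adjusted p = 0.0144), where A375 had -0.68 and SK-MEL-28 -1.22. LDHA differed by -0.25 (adjusted p = 0.0147), with -0.40 in A375 and -0.66 in SK-MEL-28, lost without SK-MEL-28 Etoposide + Rapamycin replicate 3 (-0.23, adjusted p = 0.0528). For ENO1 the difference was -0.26 (adjusted p = 0.00487), from -0.12 in A375 and -0.39 for SK-MEL-28. The difference of ALDOA was -0.26 (adjusted p = 0.0118), where A375 had -0.04 and SK-MEL-28 -0.31.

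HIF1A, 3 genes of the mitochondrial genome and S100B had a more positive response in SK-MEL-28. HIF1A differed by 0.44 (adjusted p = 0.000666), with -0.66 in A375 and -0.23 in SK-MEL-28. For MT-CO1 the difference was 0.31 (adjusted p = 0.00113), from -0.23 in A375 and 0.08 for SK-MEL-28. The difference of MT-CO2 was 0.23 (adjusted p = 0.0358), where A375 had -0.28 and SK-MEL-28 -0.06, lost in 9 of 12 fits (0.18 to 0.26, adjusted p of up to 0.130). MT-ATP6 differed by 0.45 (adjusted p = 0.00143), with -0.43 in A375 and 0.01 in SK-MEL-28. For S100B the difference was 0.42 (adjusted p = 0.0354), from -0.58 in A375 and -0.16 in SK-MEL-28, lost in 9 of 12 fits (0.33 to 0.48, adjusted p of up to 0.0989).

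No explanation of these differences was tested.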

How the results depend on the processing

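By edgeR's test the number of genes called was 1109 in A375, 943 in SK-MEL-28, 2522 and 2894 between the cell lines under etoposide and under etoposide + rapamycin, and 1130 for the difference between responses. Without the fold change threshold these were 5295, 3582, 6392 and 7595, and 4, 5, 5 and 4 of the 8 genes passed. The difference between responses gave 1811 genes by DESeq2 and 658 when a gene needed only 1 count in any library. With library totals 2 of the 8 genes were called in SK-MEL-28, BNIP3 and BNIP3L. BNIP3 was called between the cell lines under etoposide by DESeq2 and with RLE (1 gene of the 8 each). With the longest transcript as gene length, FUNDC1 ranked 7 in all 4 groups and BCL2L13 ranked 6, or 5 in SK-MEL-28 with rapamycin, and in A375 with rapamycin FKBP8 ranked 1, PHB2 2, BNIP3 3 and PINK1 4.

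Leaving out each library in turn gave 913 to 1202 genes in A375, 816 to 954 in SK-MEL-28, 2315 to 2530 and 2665 to 2935 between the cell lines, and 594 to 1315 for the difference between responses. The last was 594 without A375 Etoposide + Rapamycin replicate 3, 642 without A375 Etoposide replicate 3, 616, 705 and 710 without SK-MEL-28 Etoposide replicates 2 and 3 and SK-MEL-28 Etoposide + Rapamycin replicate 2. Of the 8 genes, 1 to 2 were called in SK-MEL-28 (BNIP3L was added without SK-MEL-28 Etoposide + Rapamycin replicate 1 or SK-MEL-28 Etoposide replicate 2), 0 to 1 between the cell lines under etoposide (BNIP3 without A375 Etoposide replicate 3 or SK-MEL-28 Etoposide replicate 1 or 2) and 1 to 2 for the difference between responses (PINK1 was added without A375 Etoposide + Rapamycin replicate 2). Of 269 values of single genes, 38 had another sign in an alternative, none of which had passed its test. Of these, 9 belonged to the 8 genes, among them FUNDC1 (-0.16 to 0.06) and PINK1 (-0.12 to 0.05) in A375 with rapamycin and FUNDC2 (-0.02 to 0.12) between the lines under etoposide + rapamycin. For single genes 1926 values in these alternatives, leave-one-out aside, kept their status, whether called or not, while 95 gained a call and 16 lost one.

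The replicate block gave 1034, 897, 2462, 2856 and 1054 genes in the order above and changed no call of the 8 genes, although by adjusted p alone it lost PINK1 between the lines under etoposide (-0.20, adjusted p = 0.0580), as did RLE (0.0572) and a filter of 1 count in any library (0.107). That filter also lost BNIP3L between the lines under etoposide + rapamycin (0.0754). Deviations of libraries with the same number correlated at -0.075 to 0.017 in A375 and -0.138 to 0.027 in SK-MEL-28, so the numbers were not taken as pairs. FUNDC1, with 313 to 595 counts, had the widest errors of the 8 genes.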
